A study of Mus musculus with 6 samples.

Results

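The genes described here are the chemokines and chemokine receptors measured in mouse hematopoietic stem cells (HSCs) of Merit40-/- and wild-type (WT) mice. They were taken by symbol, as every measured gene named Ccl, Ccr, Cxcl, Cxcr or Ackr with a number and an optional final letter, together with Cx3cl1, Cx3cr1, Xcl1 and Xcr1. This gave 55 of the 23185 named genes on the array, 34 ligands and 21 receptors. The Ccl21 and Ccl27 genes were not analysed here. The cells were freshly isolated from bone marrow of young adult mice and sorted as CD150+CD48- cells of the LSK gate (lineage-negative, Sca-1+, c-Kit+), with a second round of sorting. There were 3 arrays of Merit40-/- HSCs, which lack the Merit40 subunit of K63-specific deubiquitinase complexes, and 3 of WT HSCs, each labelled as a biological replicate. Neither group received a treatment. The labels give neither the strain background nor the sex of the mice, nor how many mice went into an array or how the Merit40 allele was made.

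Chemokines are small secreted proteins that guide the movement of cells, and they are grouped as CC, CXC, C and CX3C by the spacing of their first cysteines. Most of their receptors are G protein-coupled receptors that signal through Gi proteins, while the atypical receptors of the Ackr group bind chemokines and remove or store them without that signal. In bone marrow, Cxcl12 made by perivascular stromal cells and endothelium holds HSCs in their niche through Cxcr4, and blocking this receptor releases HSCs into the blood.

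Values are log2 expression values from RMA, so a difference of 1 is a 2-fold difference, and differences are Merit40-/- minus WT. Probe sets differ in brightness, so an order of genes by level, used below to choose the genes shown, is an order of probe set signal and not of transcript amount. Where a gene is said to lie below the mark of low signal, its level is under 4.93, the median of all named genes. Babam1, which encodes Merit40, read 4.29, 3.87 and 4.01 in Merit40-/- HSCs, against 7.91, 8.04 and 8.05 in WT HSCs (difference -3.94, adjusted p = 5.04e-05 in limma). It was the only named gene to pass the threshold of 0.05 on the adjusted p. Of 14 HSC marker genes 12 were measured, all 12 at or above the mark of low signal, and their mean on an array was 8.18 to 8.47 in Merit40-/- and 8.05 to 8.36 in WT. Cd48, the negative marker of the sort, averaged 5.39 in Merit40-/- and 5.42 in WT. Among 11 measured genes listed as markers of cells outside the gate, which include Cd48 and also Ptprc and Cd34 that stem and progenitor cells express, 5 were lower and 6 higher, 0 passed, and the neutrophil gene Ly6g alone had an unadjusted p under 0.05, at 7.66, 6.97 and 6.35 in Merit40-/- and 5.88, 6.24 and 6.42 in WT (difference 0.81, SE 0.31). The neutrophil granule gene Ngp was high on every array, at 10.46 to 11.10 in Merit40-/- and 10.49 to 10.96 in WT. In Merit40-/- replicate 1, 12 skeletal muscle genes averaged 8.40, against 4.64 to 4.92 on the other 5 arrays, and in Merit40-/- replicate 3, 10 osteoclast genes averaged 5.78, against 4.67 to 4.82 on the others.

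No chemokine or chemokine receptor gene passed the test. In limma, 0 of the 55 genes were lower and 0 higher at an adjusted p under 0.05, where 0.00431% of all 23185 named genes were lower (1 gene) and 0.0% higher. The smallest adjusted p among the 55 was 0.999 in limma. Before adjustment, Cxcl12 and Ccr10 had a p under 0.05 (2 genes or 3.64% of the 55, where all named genes gave 4.22%, or 979 genes). Both were lower in Merit40-/- (1.96% of all genes were lower and 2.26% higher by this rule). The differences of the 55 genes ran from -0.59 for Cxcl12 to 0.37 for Ccl1.

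More of the 55 genes stood below 0 than above it. There were 34 genes lower (61.8%) and 21 higher (38.2%) in Merit40-/-, where 48.5% of all named genes were lower and 51.5% higher. The median difference was -0.06, against 0.0052 over all named genes. On single arrays the median level of the 55 genes was 4.07 to 4.43 in Merit40-/- and 4.13 to 4.32 in WT, so the genotypes overlapped. With 1 array left out, 31 to 35 genes were lower, namely 34 without Merit40-/- replicate 1 and 31 without Merit40-/- replicate 3, the arrays with muscle and osteoclast genes. Without both of these, a setting added after the data had been seen that leaves 1 Merit40-/- array, 28 were lower and 27 higher, with a median of -0.04. Among the genes left without the dimmest 50%, 15 were lower and 5 higher. Their median was -0.16, against -0.00063 over all 11592 genes left. The share of lower genes over all those left was not counted.

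For 7 of the 55 genes, all Merit40-/- arrays lay on the same side of all WT arrays (12.7%, against 9.05% of all named genes). Cxcl12, Ccr10, Ackr1, Ccl17, Cxcl14 and Cxcr4 were lower on every Merit40-/- array (6 genes or 10.9%, against 4.22% of all genes), and Cxcr5 was higher on every one (1 gene or 1.82%, against 4.84%). For 51 of the 55 genes, a change of 2-fold or more either way fell outside the 95% interval (92.7%, against 96.4% of all genes). A change of 1.5-fold or more fell outside it for 35 of them (63.6%, against 73.2%). The mean level was at or above the mark of low signal for 20 genes (36.4%, against 50.0%), and in the other 35 the log2 differences are compressed towards 0. Of the genes without overlap, Ccr10, Ackr1, Ccl17, Cxcl14 and Cxcr5 were among these 35.

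**Figure D1:**
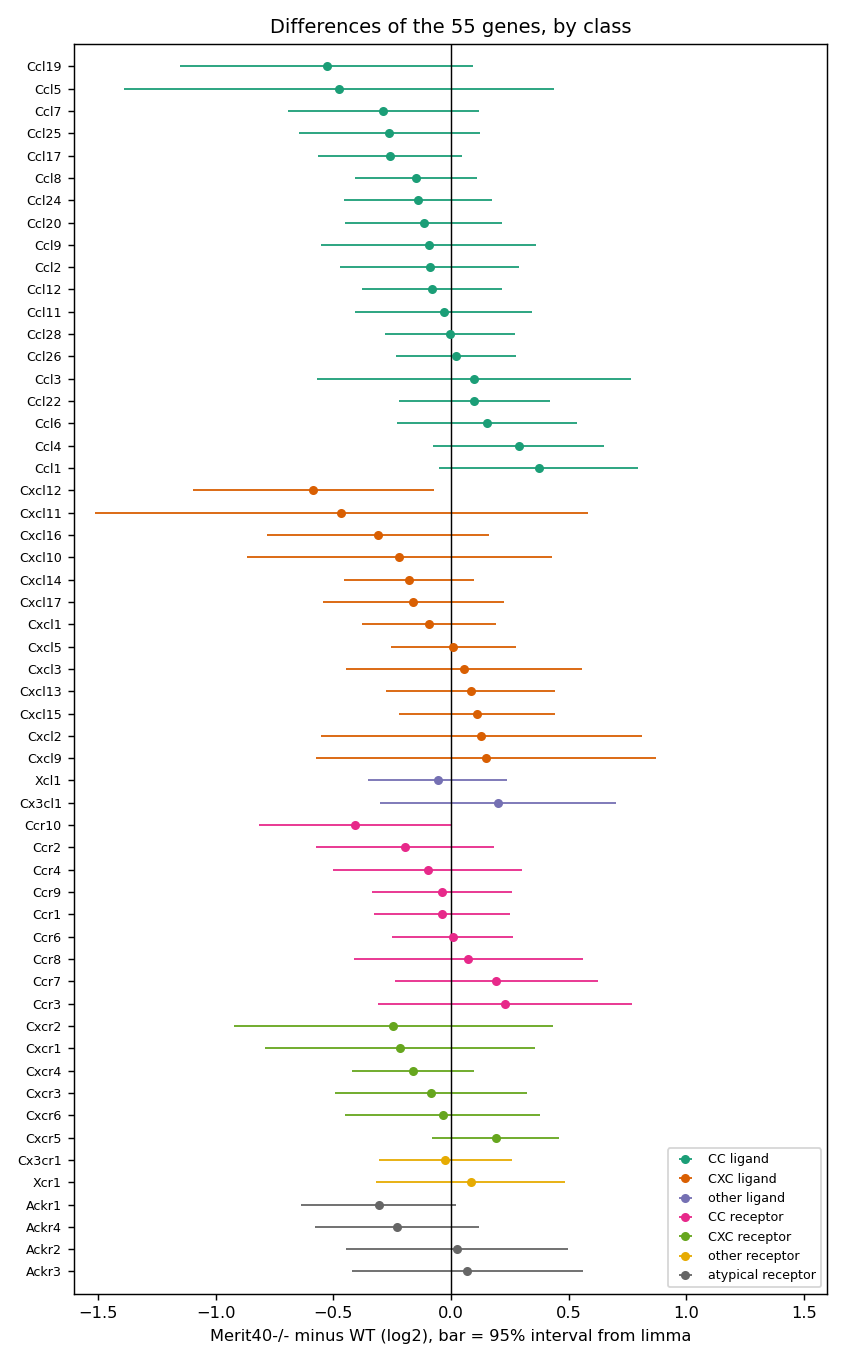
Difference of each of the 55 genes, in log2 units (Merit40-/- minus WT), with bars for the 95% interval from limma (n = 3 arrays per genotype), ordered within each class of ligand or receptor. The interval includes 0 for all genes but Cxcl12 and Ccr10, and no gene passed the adjusted threshold.

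Cxcl12, the ligand that retains HSCs in the marrow, had the lowest difference of the 55 genes. It read 5.51, 5.54 and 5.49 in Merit40-/- HSCs, against 6.64, 5.95 and 5.71 in WT HSCs. All 3 Merit40-/- arrays lay close together below the lowest WT array, and the WT arrays were spread, with replicate 1 the highest. The level was 5.51 ± 0.03 in Merit40-/- and 6.10 ± 0.48 in WT (SD, n = 3 each). The difference was -0.59 (SE 0.22, 95% interval -1.10 to -0.07), and it did not pass (adjusted p = 0.999 in limma). The exact permutation p, 2-sided, was 0.1, and no lower value can be reached with 3 arrays in each genotype. Without WT replicate 1 the difference was -0.32, so the value depended on this array by more than 1.5 times. In bulk samples such as these, fewer cells of a type and less RNA per cell cannot be told apart.

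Cxcl12 is a stromal and endothelial transcript, so markers of these cells are given beside it. Of 20 stromal and endothelial genes, 14 lay below the mark of low signal, and their mean on an array was 4.73 to 4.83 in Merit40-/- and 4.71 to 4.84 in WT, so this summed level did not separate the genotypes. Of the 20 genes 10 were lower and 10 higher, with a median difference of -0.0075, and 0 passed. The 2 with an unadjusted p under 0.05 lay on opposite sides of 0. Vcam1, an adhesion molecule of stroma and marrow macrophages, read 4.74, 4.88 and 4.60 in Merit40-/- and 5.26, 5.31 and 4.81 in WT (difference -0.39, SE 0.16). Emcn, an endothelial sialomucin that HSCs also express, read 8.36, 8.08 and 8.58 in Merit40-/- and 7.57, 8.11 and 7.99 in WT (difference 0.45, SE 0.19). Lepr, the receptor that marks the perivascular stromal cells, averaged 2.85 in Merit40-/- and 3.04 in WT, and Cdh5, the endothelial cadherin, 3.92 in Merit40-/- and 3.68 in WT, all below the mark of low signal. In WT replicate 1, where Cxcl12 was highest, the mean of 11 erythroid genes was also highest, at 7.26 against 6.46 to 6.77 in Merit40-/- and 6.55 to 6.76 in the other WT arrays. Of these genes, Car2 was lowest there, at 11.02. The mean of 15 macrophage and dendritic cell genes was highest there too, at 5.59 against 5.33 to 5.46 in Merit40-/- and 5.29 to 5.48 in the other WT arrays. So was the stromal and endothelial mean, at 4.84 against 4.83 in Merit40-/- replicate 3. The other cell type lists had their highest mean on other arrays. The part of these markers in the Cxcl12 difference was not tested.

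Cxcr4, the receptor for Cxcl12 on HSCs, differed by little. It read 8.49, 8.61 and 8.50 in Merit40-/- HSCs, against 8.63, 8.68 and 8.78 in WT HSCs. The genotypes did not overlap, but the highest Merit40-/- array and the lowest WT array lay side by side. The level was 8.53 ± 0.07 in Merit40-/- and 8.69 ± 0.08 in WT (SD, n = 3 each), a difference of -0.16 (SE 0.11, 95% interval -0.42 to 0.10; adjusted p = 0.999 in limma; exact permutation p = 0.1). The interval was among the narrower ones, since the median half-width over the 55 genes was 0.384 and over all genes 0.342.

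Ackr3, the atypical receptor that removes Cxcl12, overlapped between the genotypes. It read 4.98, 5.25 and 4.86 in Merit40-/- and 4.70, 4.75 and 5.44 in WT, with the highest WT array above all others. The difference was 0.07 (SE 0.21; exact permutation p = 0.8), and leaving out 1 array at a time gave -0.06 to 0.31.

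**Figure D2:**
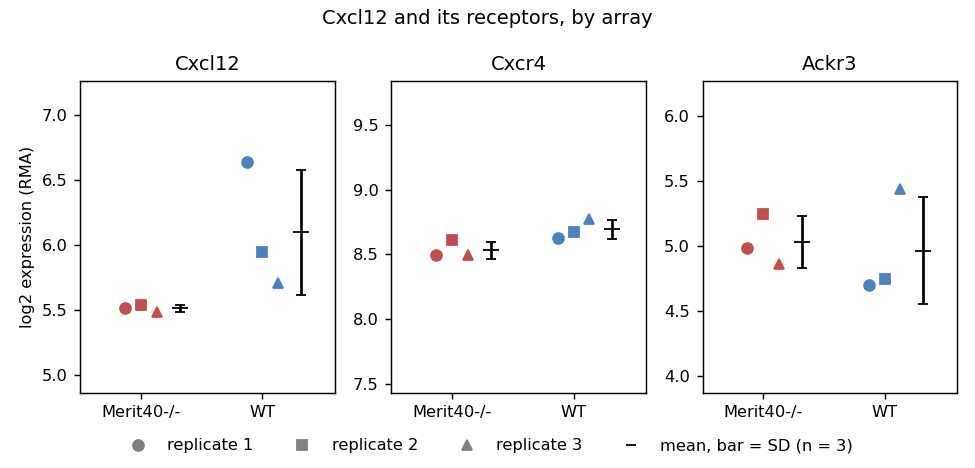
Level of Cxcl12, Cxcr4 and Ackr3 on each array (log2 expression, each panel spanning the same range of log2 units), with the mean and SD of 3 arrays per genotype. The Merit40-/- arrays lie below the WT arrays for Cxcl12 and Cxcr4, with a gap that is small for Cxcr4, and overlap them for Ackr3.

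The promoters of these genes are shown because the Cxcl12 axis holds both the gene with the lowest difference and its receptor, and Ccl19 because it had the next lowest difference. Each stretch is the 250 bases before the gene's start in RefSeq (assembly GRCm38.p6), written 5′ to 3′ in the direction of transcription. Capitals mark matches on either strand to the GC box GGGCGG, which the Sp1 family of factors binds in many promoters. They also mark the TATA box, searched as TATAAA, and the core of the interferon response element, searched as GAAA repeated after a gap of 2 bases. Neighbouring or overlapping matches run together.
Cxcl12 (chr6:117168285-117168534, plus strand): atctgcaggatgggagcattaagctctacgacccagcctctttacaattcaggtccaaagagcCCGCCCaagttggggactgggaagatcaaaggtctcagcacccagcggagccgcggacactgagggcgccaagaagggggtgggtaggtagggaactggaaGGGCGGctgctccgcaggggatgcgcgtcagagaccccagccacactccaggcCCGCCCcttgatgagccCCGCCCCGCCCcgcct
Cxcr4 (chr1:128592300-128592549, minus strand): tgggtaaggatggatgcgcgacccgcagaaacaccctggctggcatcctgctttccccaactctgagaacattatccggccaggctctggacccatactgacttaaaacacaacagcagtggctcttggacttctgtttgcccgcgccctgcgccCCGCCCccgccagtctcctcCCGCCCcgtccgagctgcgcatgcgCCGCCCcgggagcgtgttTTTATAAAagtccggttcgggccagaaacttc
Ackr3 (chr1:90203730-90203979, plus strand): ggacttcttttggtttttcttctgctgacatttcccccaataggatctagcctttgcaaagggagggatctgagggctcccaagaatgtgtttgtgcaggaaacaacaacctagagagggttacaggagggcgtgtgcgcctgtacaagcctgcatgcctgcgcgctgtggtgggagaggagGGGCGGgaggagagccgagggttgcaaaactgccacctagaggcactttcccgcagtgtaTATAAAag
Ccl19 (chr4:42756366-42756615, minus strand): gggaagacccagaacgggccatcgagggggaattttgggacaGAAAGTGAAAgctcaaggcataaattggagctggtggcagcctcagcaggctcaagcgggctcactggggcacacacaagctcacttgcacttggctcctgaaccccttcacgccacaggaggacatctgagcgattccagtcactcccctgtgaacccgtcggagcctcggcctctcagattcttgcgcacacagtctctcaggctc

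Cxcl12 and Cxcr4 held several GC boxes, 5 and 3 by this search, and Ackr3 held 1. A TATA box was found in Cxcr4 (2 overlapping matches, 1 on each strand) and in Ackr3 (1), and in neither Cxcl12 nor Ccl19. CpG pairs numbered 14 in Cxcl12, 19 in Cxcr4, 7 in Ackr3 and 9 in Ccl19, where the median of all 32851 promoters was 6. Of all these promoters, 32.7% held a GC box, 12.4% a TATA box and 2.98% the interferon core, which Ccl19 held once. These matches describe letters in a window and are not measured binding sites.

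Among the CC ligands, 13 of 19 were lower and 6 higher in Merit40-/-, with a median of -0.09. Ccl19, which draws T cells and dendritic cells through Ccr7, read 5.37, 6.44 and 6.25 in Merit40-/- and 6.80, 6.41 and 6.44 in WT. Merit40-/- replicate 1, the array with muscle genes, was the low array, and without it the difference was -0.20 in place of -0.53 (SE 0.27 with all arrays; exact permutation p = 0.3). RefSeq also lists pseudogenes of Ccl19 on the same chromosome, and whether the probe set tells them apart was not tested, so its values are uncertain.

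Ccl5, a chemokine that lymphocytes and platelets store and that has been linked to myeloid-biased HSCs, was low on 1 array. It read 7.75, 7.76 and 6.16 in Merit40-/- and 7.47, 7.81 and 7.83 in WT. Merit40-/- replicate 3 stood at least 1.31 below every other array, while the remaining Merit40-/- arrays lay within the WT range. The difference was -0.48 (SE 0.40; exact permutation p = 0.5), and without that array it was 0.06. Nkg7, a granule gene of NK and cytotoxic T cells, was also lowest there, at 7.43 against 8.33 to 8.97 on the other 5 arrays. Unlike Ccl5, Nkg7 was lower on every Merit40-/- array, at 8.33, 8.67 and 7.43 against 8.97, 8.80 and 8.73 in WT (difference -0.69, SE 0.28). Of all named genes, 4.22% were lower on every Merit40-/- array. Klrb1c and Prf1, the other T and NK cell genes at or above the mark of low signal, were not lowest in Merit40-/- replicate 3, with Klrb1c at 6.69 against 5.96 to 7.01 on the other 5 arrays and Prf1 at 5.21 against 4.93 to 5.51. The mean of 16 T and NK cell genes was 4.03 in that array, against 4.15 to 4.39 on the others, and 13 of these genes, Cd3e among them, lay below the mark of low signal. Their part in the low Ccl5 value was not tested.

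Ccl4, an inflammatory chemokine encoded close to Ccl5 on chromosome 11, went the other way without passing. It read 7.09, 7.14 and 6.74 in Merit40-/- and 6.74, 6.49 and 6.87 in WT. The lowest Merit40-/- array lay within the WT range, and the difference was 0.29 (SE 0.16; exact permutation p = 0.3). Ccl3, its close relative and neighbour, differed by 0.10 (SE 0.29), with 5.81 in Merit40-/- replicate 1, against 4.73 to 5.25 on the other 5 arrays.

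Ccl1, the ligand of Ccr8, had the highest difference of the 55 genes. It read 3.41, 3.12 and 3.77 in Merit40-/- and 3.16, 3.16 and 2.85 in WT, all below the mark of low signal (difference 0.37, SE 0.18). Ccl17, a ligand of Ccr4, read 3.56, 3.48 and 3.22 in Merit40-/- and 3.6 to 3.76 in WT, without overlap and also below the mark (difference -0.26, SE 0.13). Both genes thus differed only in the range where the array has little signal.

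The remaining CC ligands stood between -0.29 and 0.15. Ccl7, a monocyte attractant, differed by -0.29 (SE 0.18), and by -0.09 without Merit40-/- replicate 1. Ccl25, the ligand of Ccr9 that draws progenitors to the thymus and gut, differed by -0.26 (SE 0.17), and by -0.11 without Merit40-/- replicate 2. Ccl9, a myeloid chemokine of rodents, averaged 5.72 in Merit40-/- and 5.82 in WT, and Ccl6, another rodent myeloid chemokine, averaged 5.33 in Merit40-/- and 5.17 in WT. The 11 CC ligands on chromosome 11, grouped by chromosome and not by position, had 7 lower and 4 higher members. Their median was -0.08, and as a group they did not share a direction.

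Among the CXC ligands, 7 of 13 were lower and 6 higher, with a median of -0.09. Cxcl11, an interferon-induced ligand of Cxcr3, read 4.07, 3.51 and 4.11 in Merit40-/- and 5.56, 3.68 and 3.85 in WT. WT replicate 1 stood at least 1.45 above every other array, and without it the difference was 0.13 in place of -0.47. Cxcl9 and Cxcl10, which share the receptor and the induction by interferon, differed by 0.15 (SE 0.31) and -0.22 (SE 0.28), so the differences of the Cxcr3 ligands had no common sign.

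Cxcl16, a transmembrane chemokine that binds Cxcr6, read 5.33, 5.43 and 5.13 in Merit40-/- and 5.15, 5.91 and 5.77 in WT (difference -0.31, SE 0.21). Cxcl14, a chemokine of epithelia and stroma, read 4.08, 4.07 and 3.94 in Merit40-/- and 4.15, 4.13 and 4.34 in WT. The groups did not overlap, but all values lay below the mark of low signal and the difference of the means was only -0.18 (SE 0.12). The neutrophil attractants Cxcl1, Cxcl2, Cxcl3 and Cxcl5 had mean levels of 2.91 to 3.74 in Merit40-/- and 2.78 to 3.83 in WT, with differences of -0.09, 0.13, 0.06 and 0.01. Cxcl13, which organises B cell follicles through Cxcr5, differed by 0.08 (SE 0.16), Cxcl15 by 0.11 and Cxcl17 by -0.16. Of the 9 CXC ligands on chromosome 5, grouped by chromosome and not by position, 3 were lower and 6 higher, with a median of 0.06.

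Cx3cl1, the membrane-bound ligand of Cx3cr1, read 6.32, 5.77 and 6.54 in Merit40-/- and 5.75, 6.04 and 6.24 in WT (difference 0.20, SE 0.22, and 0.03 without Merit40-/- replicate 3). Cx3cr1, a receptor of monocytes and macrophages, was among the steadiest members, at 6.07, 6.07 and 6.11 in Merit40-/- and 6.27, 6.09 and 5.96 in WT (difference -0.02, SE 0.12, 95% interval -0.31 to 0.26). Xcl1, made by NK and T cells, differed by -0.06 (SE 0.13), and Xcr1, its receptor on cross-presenting dendritic cells, by 0.08 (SE 0.17). Neither pair of ligand and receptor separated the genotypes.

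**Figure D3:**
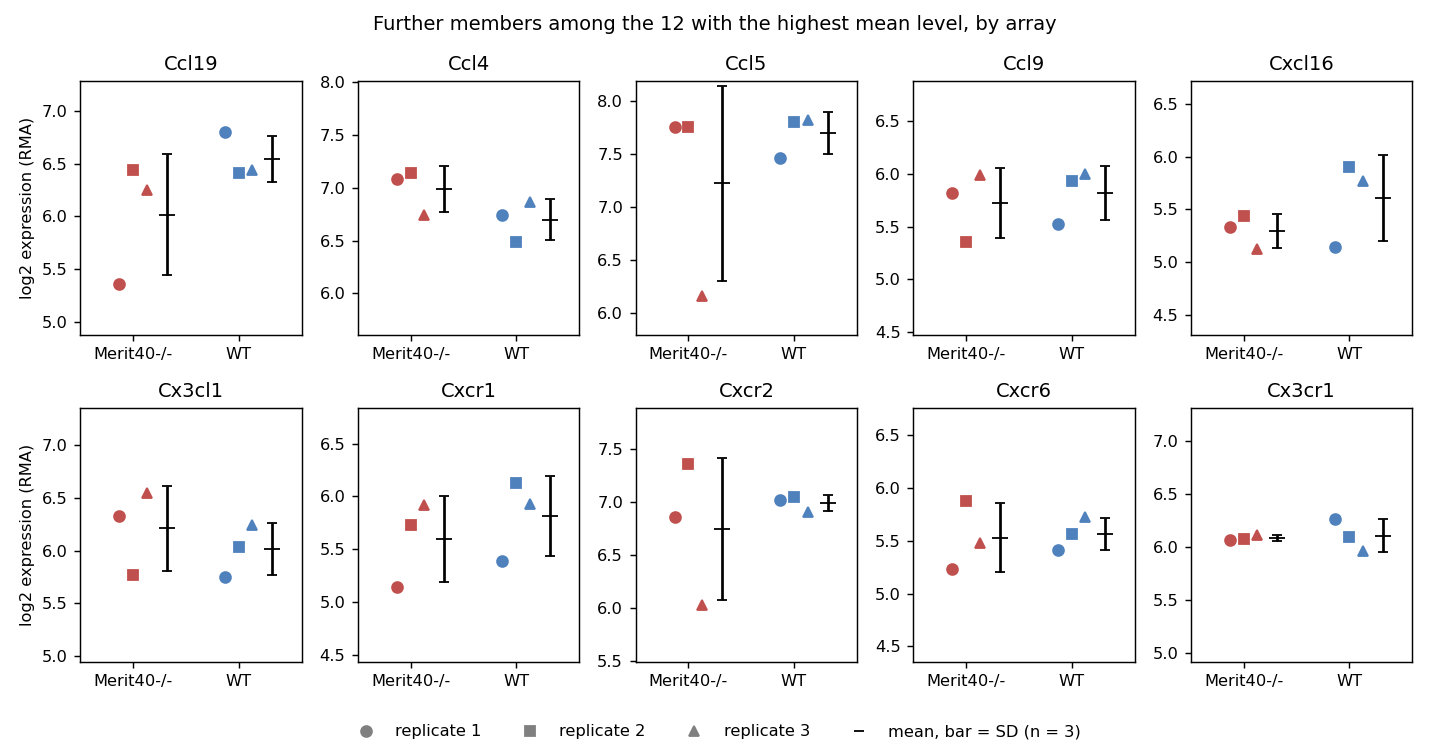
Level on each array (log2 expression, each panel spanning the same range of log2 units) of the 10 further genes among the 12 whose probe sets had the highest mean signal, with the mean and SD of 3 arrays per genotype. Ccl5 and Cxcr2 are low in Merit40-/- replicate 3 and Ccl19 in Merit40-/- replicate 1, and the genotypes overlap in every panel.

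Among the CC receptors, 5 of 9 were lower and 4 higher, with a median of -0.04, and the mean level of all 9 lay below the mark of low signal. Ccr10, the receptor of skin and mucosal lymphocytes for Ccl27 and Ccl28, read 3.13, 3.37 and 3.39 in Merit40-/- and 4.03, 3.40 and 3.69 in WT. The groups did not overlap, but the highest Merit40-/- array and the lowest WT array were 3.39 and 3.40 (difference -0.41, SE 0.18). Ccl28 averaged 4.78 in both genotypes. Ccr2, the monocyte receptor for Ccl2, averaged 4.79 in Merit40-/- and 4.99 in WT, and Ccr3, the eosinophil receptor, differed by 0.23 (SE 0.23). Ccr7, which leads lymphocytes and dendritic cells to lymph nodes, read 4.36, 4.32 and 4.28 in Merit40-/- and 4.36, 3.69 and 4.33 in WT, a difference of 0.19 (SE 0.19) that was -0.03 without WT replicate 2. The other CC receptors, Ccr1, Ccr4, Ccr6, Ccr8 and Ccr9, differed by -0.10 to 0.07.

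Of the 6 CXC receptors 5 were lower and 1 higher. Cxcr2, the main chemokine receptor of neutrophils, read 6.86, 7.36 and 6.02 in Merit40-/- and 7.02, 7.05 and 6.91 in WT. As with Ccl5, Merit40-/- replicate 3 was the low array, and the difference was -0.24 (SE 0.29) with it and 0.12 without it. The neutrophil granule genes Camp and Ltf were also lowest in that array, Camp at 9.43 against 10.02 to 10.48 on the other 5 arrays and Ltf at 7.51 against 7.69 to 8.57. Of the 15 granulocyte and monocyte genes, which include Camp and Ltf, Ms4a3, Ngp, S100a8 and S100a9 were also lowest in Merit40-/- replicate 3. Mpo, Elane, Prtn3, Ctsg, Ly6c2, Csf1r, Fcgr1, Itgam and Csf3r were lowest on other arrays. The 15 genes averaged 7.85 to 8.25 in Merit40-/- and 7.83 to 8.21 in WT. Their mean was 7.85 in Merit40-/- replicate 3 and was lower only in WT replicate 3, at 7.83. The part of neutrophil transcripts in the Cxcr2 value was not tested.

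Cxcr5, the receptor that leads B cells to follicles, read 4.29, 4.45 and 4.45 in Merit40-/- and 4.11, 4.28 and 4.23 in WT, without overlap and below the mark of low signal (difference 0.19, SE 0.12). Cxcr1, the relative of Cxcr2, differed by -0.22 (SE 0.25), Cxcr3, the receptor of activated T cells, by -0.08 (SE 0.18), and Cxcr6, the receptor of resident T and NK cells, by -0.04 (SE 0.18). Among the atypical receptors, Ackr1, which binds many inflammatory chemokines on red cells and venules, read 4.03, 4.01 and 3.64 in Merit40-/- and 4.26, 4.10 and 4.24 in WT (difference -0.31, SE 0.14). The groups did not overlap, and the WT arrays lay closer together, but all values lay below the mark of low signal. Ackr2, a scavenger of inflammatory CC chemokines, differed by 0.02 (SE 0.20), and Ackr4, a scavenger of Ccl19 and Ccl21, by -0.23 (SE 0.15).

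Known ligand and receptor pairs were set side by side, and 31 of 36 had both genes measured. In 5 of these pairs both genes had mean levels at or above the mark of low signal, namely Cxcl12 with Cxcr4, Cxcl12 with Ackr3, Cxcl16 with Cxcr6, Cxcl10 with Cxcr3 and Cx3cl1 with Cx3cr1. In none of these 5 pairs did either gene pass the adjusted threshold.

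**Figure D4:**
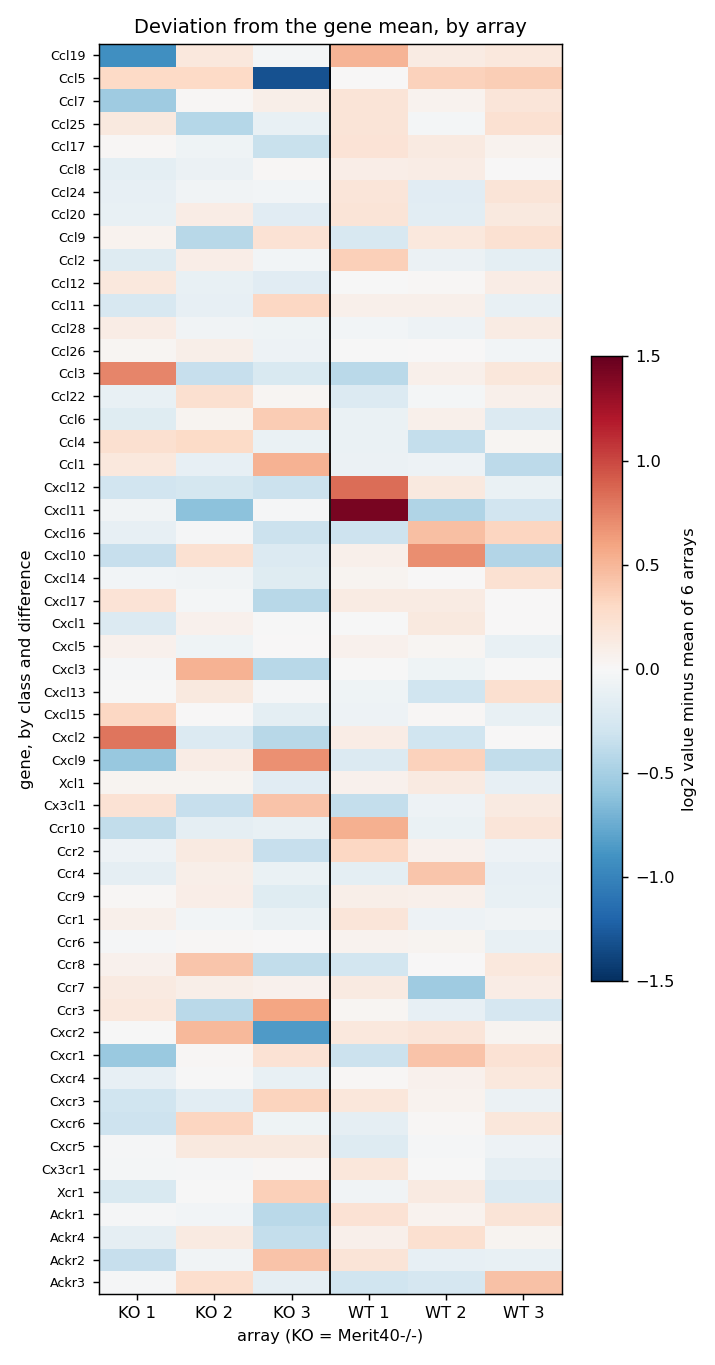
Deviation of each of the 55 genes from its own mean over the 6 arrays (log2), with Merit40-/- arrays (KO) left of the line and WT arrays right of it, and genes in the same order of classes as in the plot of differences. Ccl5 and Cxcr2 are low in Merit40-/- replicate 3, and Cxcl11 and Cxcl12 are high in WT replicate 1.

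The extremes of the 55 genes were spread unevenly over the arrays. Merit40-/- replicate 3, the array with osteoclast genes, was the lowest of the 6 arrays for 20 of the 55 genes (36.4%), where it was lowest for 16.5% of all named genes. Merit40-/- replicate 1 was lowest for 14 (25.5%, against 17.8%) and Merit40-/- replicate 2 for 4 (7.27%, against 16.8%). WT replicate 1 was the highest array for 14 genes (25.5%, against 14.6%). Only Ccl5 and Cxcl11 had an array at least 1 log2 unit away from every other (2 genes or 3.64%, against 0.759% of all genes). The median range over the 6 arrays was 0.622 for the 55 genes and 0.492 for all genes.

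Genes that act with the chemokine system gave no call either. Of 26 measured G protein signalling genes, 14 were lower and 12 higher, 0 passed in either direction, and the median was -0.0039. Gng2, a G protein gamma subunit, had the highest difference at 0.24 (SE 0.15) and Gnb2, a beta subunit, the lowest at -0.14 (SE 0.12). Gnai2, the alpha subunit through which chemokine receptors mainly signal in leukocytes, averaged 9.02 in Merit40-/- and 9.06 in WT. Of 17 genes of receptor desensitisation and trafficking, 10 were lower and 7 higher and 0 passed, with Arrb1, a beta-arrestin, at 0.18 (SE 0.13) and Rgs10, a regulator of G protein signalling, at -0.36 (SE 0.30, and -0.01 without WT replicate 2).

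Of 14 measured proteases and partners that act on Cxcl12 or HSC retention, 11 were higher and 3 lower in Merit40-/-, with a median of 0.30 against 0.0052 over all genes, and 0 passed. Ctsk, a protease that can cleave Cxcl12, read 3.58, 3.69 and 7.94 in Merit40-/- and 3.83, 3.55 and 3.89 in WT, with the 1 high value on the array with osteoclast genes (difference 1.31, SE 1.02, and -0.12 without that array). Cd74, which binds the Cxcr4 ligand Mif, had the lowest difference at -0.30 (SE 0.19). Ctsg, a neutrophil protease that cleaves Cxcl12, read 7.58, 7.53 and 6.70 in Merit40-/- and 6.78, 6.15 and 6.11 in WT, and Mmp2, a matrix metalloprotease with the same ability, read 5.25, 5.26 and 4.93 in Merit40-/- and 4.65, 4.87 and 4.71 in WT. Of the 14 genes Mmp2 alone separated the genotypes, at a difference of 0.40 (SE 0.14; adjusted p = 0.999 in limma). Of all named genes 9.05% separated them, 4.84% with Merit40-/- higher. Ctsg, Mmp9 and Cd82 did not separate them but, like Mmp2, were higher with an unadjusted p under 0.05 in limma. These were 4 of the 14 genes, against 4.22% of all named genes. Mmp9, also among the osteoclast genes, read 6.09, 5.89 and 6.68 in Merit40-/- and 5.89, 5.44 and 5.49 in WT. Its highest value was on the array with osteoclast genes, and the part of these cells in its difference was not tested. Dpp4, which trims Cxcl12 at its amino end, averaged 7.73 in both genotypes.

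Relatives of the chemokine family that carry other names were also below the threshold. Of 13 measured, 9 were lower and 4 higher and 0 passed, with a median of -0.11. Ppbp, a platelet CXC chemokine, read 6.62, 6.37 and 5.44 in Merit40-/- and 6.05, 7.35 and 7.07 in WT (difference -0.68, SE 0.39, and -0.33 without Merit40-/- replicate 3). Pf4, the platelet chemokine that restrains HSC cycling, read 9.03, 9.54 and 9.98 in Merit40-/- and 10.41, 10.21 and 9.73 in WT (difference -0.60, SE 0.26), and both genes overlapped between genotypes. The mean of 13 megakaryocyte and platelet genes, which include these 2, was 6.88 to 7.07 in Merit40-/- and 6.98 to 7.25 in WT, and its part was not tested. Cmtm6, a membrane protein of the chemokine-like factor family, was higher on every Merit40-/- array, at 8.39, 8.77 and 8.78 against 7.73, 7.89 and 8.30 in WT (difference 0.68, SE 0.18), and Cklf itself was lower on every one, at 7.25, 6.79 and 7.08 against 7.49, 7.40 and 7.35.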

How the data were processed

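Expression was measured on Affymetrix Mouse Gene arrays, 3 of Merit40-/- and 3 of WT HSCs, per the labels. The authors deposited log2 values, 1 per probe set and array, made by RMA with affy, per the submitters' processing notes. The sources used here give no version, chip definition or build. RMA equalises intensities between arrays, so an overall change in RNA is removed, and low values are compressed. Of 25206 probe sets, 23185 had 1 gene symbol, 0 several and 2021 none here, with 0 missing values. Symbols came from the reference gene table (GRCm38.p6).

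The named genes were fitted with limma 3.58.1 in R 4.3.3 (lmFit, eBayes, genotype as the only term, 2-sided, Benjamini-Hochberg over all 23185 genes, no filter), and the fit was tested on simulated data. Members, lists and alternatives were chosen with earlier results of these data known. Named genes are Cxcl12, Cxcr4, Ackr3, the 12 members of highest mean, the 6 at each end of the differences, those without overlap or with an unadjusted p under 0.05, and the ends of each list; other genes were chosen after their values were seen. Nothing shows that replicates are separate animals, so p-values measure the spread between arrays, whose number limits the precision.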

Additional observations from a re-analysis of the deposited data

How the results depend on the processing

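The count of 0 members called held in limma under all 16 alternatives, and the smallest adjusted p of a member in any of them was 0.613 in limma. Over all named genes the count of 1 became 0 with limma's unmoderated test (990 genes at an unadjusted p under 0.05) and 2 (Babam1 and the microRNA gene Mir3079, named after its value was seen) without Merit40-/- replicates 1 and 3, a setting added after the data had been seen, in a fit where the lone Merit40-/- array was assumed to vary like the WT arrays. With 1 array left out it was 1 to 1, and 0 to 0 for the members. The median difference of the members was -0.10 to -0.04 with 1 array left out, and without the dimmest 30% or 50% of genes it was -0.09 or -0.16. Cxcl12 differed by -0.78 to -0.32 and Cxcr4 by -0.20 to -0.12 with 1 array left out, with no change of sign. With 1 array left out, 23 of the 55 genes kept their sign each time and 32 changed it at least once. The range with 1 array left out spanned 0 for Ackr2 (-0.19 to 0.20), Ackr3 (-0.0601 to 0.31), Ccl11 (-0.19 to 0.081), Ccl2 (-0.18 to 0.0679), Ccl26 (-0.0178 to 0.066), Ccl28 (-0.0596 to 0.0561), Ccl3 (-0.24 to 0.30), Ccl5 (-0.74 to 0.0576) and Ccl9 (-0.24 to 0.090). It also did for Ccr1 (-0.087 to 0.0444), Ccr3 (-0.00813 to 0.49), Ccr4 (-0.20 to 0.087), Ccr6 (-0.0436 to 0.0362), Ccr7 (-0.0274 to 0.31), Ccr8 (-0.12 to 0.28), Ccr9 (-0.10 to 0.0443), Ctsk (-0.12 to 2.06) and Cx3cr1 (-0.097 to 0.0567). It also did for Cxcl10 (-0.49 to 0.0752), Cxcl11 (-0.81 to 0.13), Cxcl13 (-0.0421 to 0.22), Cxcl15 (-0.0169 to 0.21), Cxcl17 (-0.30 to 0.00738), Cxcl2 (-0.24 to 0.37), Cxcl3 (-0.19 to 0.28), Cxcl5 (-0.0443 to 0.0474) and Cxcl9 (-0.15 to 0.47). It also did for Cxcr1 (-0.43 to 0.00959), Cxcr2 (-0.55 to 0.12), Cxcr3 (-0.27 to 0.0438), Cxcr6 (-0.21 to 0.11), Xcl1 (-0.13 to 0.016) and Xcr1 (-0.0739 to 0.22). With no change of sign, 1 array left out moved the value by over 1.5 times for Ackr1 (-0.38 to -0.18), Ackr4 (-0.36 to -0.11), Arrb1 (0.11 to 0.28), Ccl1 (0.20 to 0.53), Ccl12 (-0.18 to -0.0168), Ccl17 (-0.33 to -0.16), Ccl19 (-0.74 to -0.20), Ccl20 (-0.23 to -0.0493) and Ccl22 (0.00654 to 0.18). The same held for Ccl24 (-0.26 to -0.0756), Ccl25 (-0.40 to -0.11), Ccl4 (0.18 to 0.41), Ccl6 (0.00281 to 0.29), Ccl7 (-0.40 to -0.091), Ccr10 (-0.56 to -0.24), Ccr2 (-0.31 to -0.0708), Cd74 (-0.51 to -0.15) and Cklf (-0.48 to -0.24). The same held for Cx3cl1 (0.0341 to 0.42), Cxcl1 (-0.15 to -0.0159), Cxcl14 (-0.22 to -0.11), Cxcl16 (-0.54 to -0.16), Emcn (0.29 to 0.58), Gnb2 (-0.20 to -0.085), Gng2 (0.13 to 0.33), Ly6g (0.48 to 1.13) and Pf4 (-0.83 to -0.36). The same held for Ppbp (-1.07 to -0.33) and Rgs10 (-0.56 to -0.00753). With the setting of array weights, the sign turned for Ackr2 (-0.0162), Ccl28 (0.00306), Ccr6 (-0.000223). With the setting of arrays centred on their medians, the sign turned for Ccl28 (0.00262). With the setting of quantile normalization again, the sign turned for Ccl26 (-0.000245), Ccl28 (5.36e-05). The cause was not tested. Same-numbered arrays of the genotypes did not deviate together (r = -0.05, -0.0027 and 0.04 across genes). Differently numbered arrays gave r from -0.07 to 0.07. These values show no pairing by number, but with 3 arrays per genotype they cannot exclude one. With the replicate number as a block, 1 gene was called over all genes, and 0 members, with Cxcl12 at -0.59 (adjusted p = 1.00 in limma).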

Other observations

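RefSeq promoters were matched for 41 of the 55 genes. A gene was counted as holding a motif if any of its promoters held it, while the shares of all promoters count each promoter separately. Ccl25 and Ccr6 were listed with more than a single promoter, and Ccr6 held the NF-kB motif in only a single one of its promoters. A match to the NF-kB motif on either strand was found in the 250 bases before the start of 9 of these 41 genes (22.0%), against 3.9% of all 32851 promoters. The 9 are Cxcl1, Cxcl2, Cxcl3, Cxcl10, Ccl9, Ccl20, Ccr3, Ccr6 and Ackr2, of which Cxcl1, Cxcl2 and Cxcl3 are related genes of a shared cluster. Their differences ran from -0.22 for Cxcl10 to 0.23 for Ccr3. A GC box was found in 7 of the 41 genes (17.1%, against 32.7% of all promoters) and a TATA box in 13 (31.7%, against 12.4%). The median number of CpG pairs was 3 in the 41 genes, taking a single promoter of each, and 6 in all promoters. It was 4 in the 15 genes with a mean level at or above the mark of low signal and 3 in the 26 genes below it.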
